A study of Drosophila melanogaster with 27 samples.

Results

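In the developing ovary of Drosophila melanogaster, 76 protein-coding genes were at least 2 times higher in late than in early sorted somatic cells. Their symbol is still a CG number, although some carry other names as synonyms. A CG number is the provisional name that the genome annotation gives to a gene that has no accepted name yet. The genes were chosen by level, in CPM, the expected read count of a gene per 1000000 counts of its library. A gene was taken if its mean was 10 CPM or more in the late somatic libraries and if every late somatic library held at least 2 times the CPM of every early somatic library. Of 16257 genes in the count table, 5734 have a symbol made of CG and digits only, 1498 of these reached 10 CPM in late somatic cells, and 76 of the 1498 (5.07%) passed the fold threshold. The same thresholds were passed by 257 of 4414 genes with any other symbol at that level (5.82%).

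The study sequenced poly(A) RNA from larval ovaries at 3 stages of terminal filament formation, which were early (72 h after egg laying, AEL), mid (96 h AEL) and late (120 h AEL, white pupae). Sorted germ cells expressed GFP under nos:GAl4 in a line that also carries UAS-Dcr-2, sorted somatic cells expressed GFP under bab:Gal4, and whole ovaries came from Oregon R, each with 3 libraries at every stage and 27 libraries in all. Both sorted groups were offspring of UAS Green Stinger females and males of the driver line, which for bab was kept over TM6B, Tb, and their ovaries were pooled and dissociated with trypsin and Liberase before sorting on GFP. Somatic here therefore means the cells in which bab drives GFP, and cell type and driver genotype cannot be told apart in a comparison of germ with somatic cells. Whole ovaries had another genotype and were crushed without dissociation or sorting. Wherever whole ovary levels are set beside somatic levels below, tissue, genotype and handling cannot be told apart.

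Terminal filaments are stacks of flattened somatic cells, and each stack founds 1 ovariole, the tube in which eggs are later made. The bab locus encodes transcription factors that terminal filament cells need, and nos is a germ line gene. The end of larval life is set by pulses of the steroid hormone ecdysone, which acts through a nuclear receptor and a cascade of transcription factors. A CG number itself carries no function, so a role is given below only where a RefSeq synonym of the gene names one.

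Library totals ranged over 9680615 to 72875881 expected counts, and 3 counts equalled 0.0412 to 0.31 CPM. A list of 10 somatic gonad genes, such as tj, bab1 and Fas3, summed to 1433 to 3952 CPM in the somatic libraries and to 117 to 2021 CPM in the germ cell libraries. A list of 10 germ cell genes, such as vas, aub and bam, summed to 3025 to 6351 CPM in germ cells and to 15.1 to 44.8 CPM in somatic cells, and no gene of either list was at 0 in all 3 libraries of a germ or somatic group, though genes of both lists, such as en in germ cells and ovo in somatic cells, were at 0 in single libraries. The median sum of the somatic gonad list in germ cells was 47.7%, 46.5% and 41.6% of that in somatic cells at early, mid and late, with 1 early germ cell library (replicate 1) at 117 CPM. Each fat body marker sum stayed at or below 10.5 CPM in somatic cells but was 6317 to 70994 CPM in whole ovaries, and 1 germ cell mid library (replicate 1) reached 2797 CPM. The libraries of a group are called biological replicates, and the p-values measure only the spread between them.

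The choice of genes used the early and late somatic libraries. Levels in these libraries, the place of mid somatic cells between them, and germ against somatic cells at early or late are thus given as description, with no test. Whole ovaries, germ cells across stages and germ against somatic cells at mid compared none of the libraries of the choice, although in the last the early and late somatic libraries entered the shared estimate of the spread. They were tested with edgeR's quasi-likelihood test over all genes, with Benjamini-Hochberg adjustment and a threshold of 0.01. In bulk RNA, fewer cells of a type and less RNA per cell cannot be told apart, and this holds for every level below.

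In somatic cells the 76 genes together took 0.182 to 0.212% of all counts at early, 0.296 to 0.500% at mid and 0.876 to 0.991% at late. The median ratio of the late to the early mean was 5.36, with 39 genes at 5 or more and 28 at 10 or more. At late, 21 genes averaged 100 CPM or more and 22 averaged under 20 CPM. The counts were spread unevenly, since the 3 genes with the highest late CPM, which is not scaled by gene length, made up 42.4% of the summed late CPM and the 10 highest made up 64.6%.

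**Figure D1:**
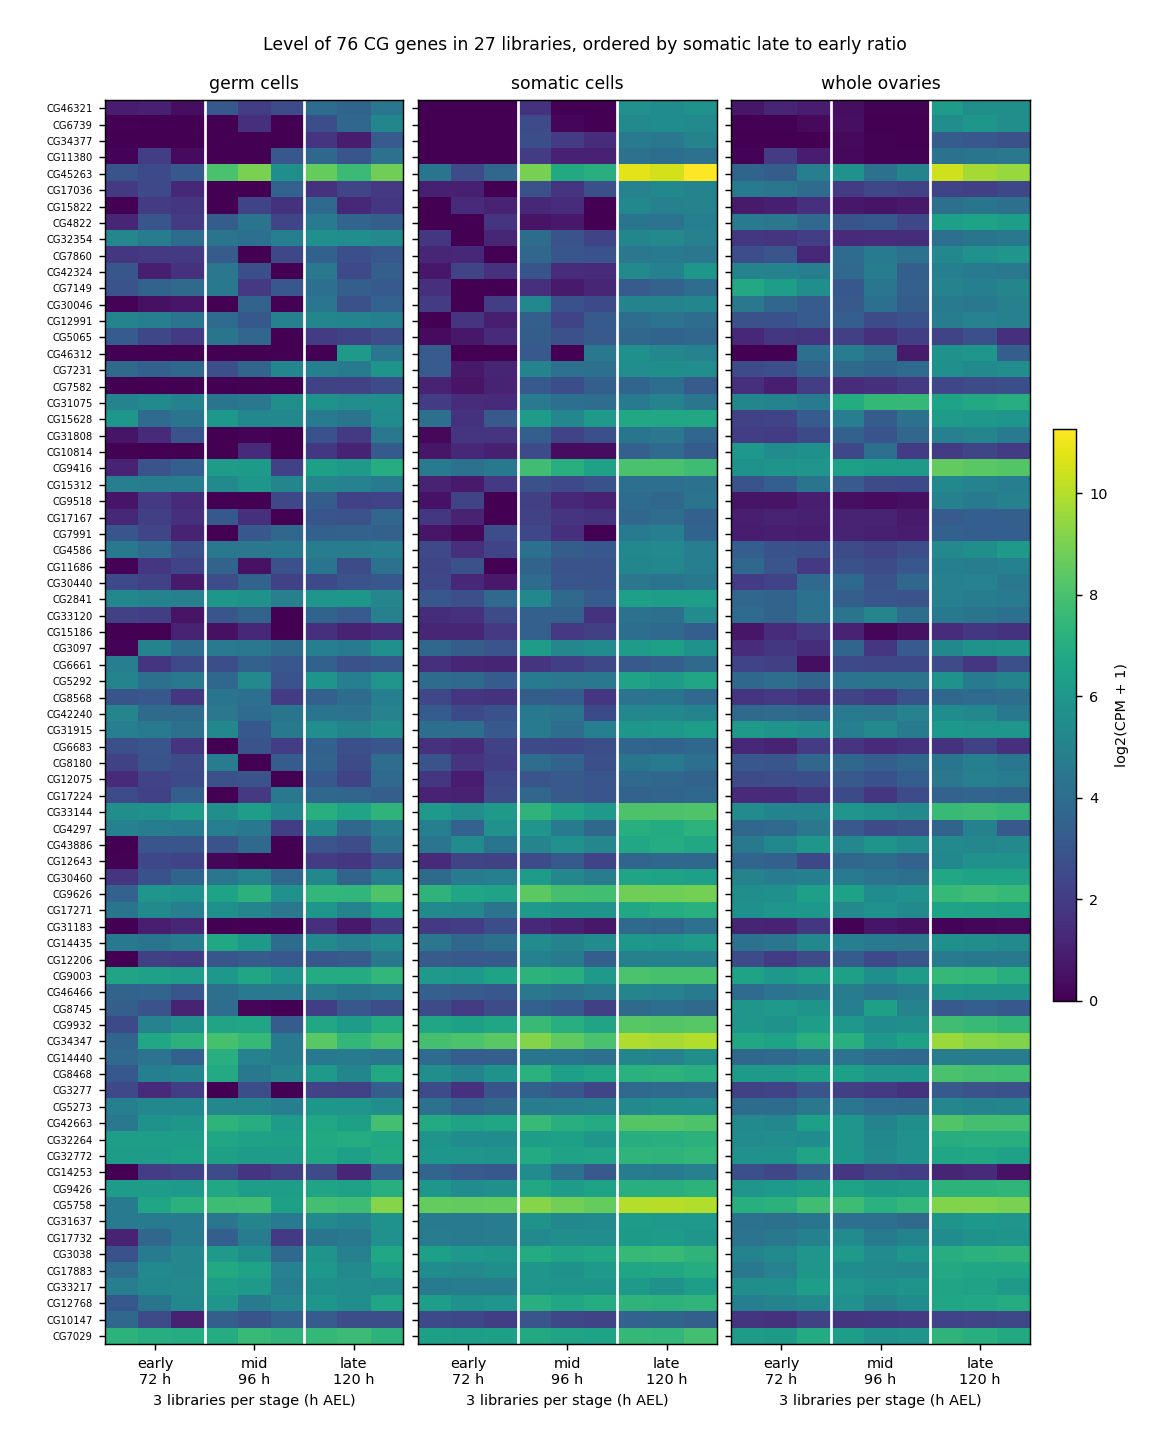
Heat map of the 76 genes, 1 row per gene in the order of the somatic late to early ratio (largest at the top), across the 27 libraries by tissue and stage, with the colour giving log2(CPM + 1). The late somatic columns, which chose the genes, are brighter than the early ones in every row, and the late whole ovary columns are brighter than the early ones in most rows, while CG17036, CG8745, CG10814, CG14253, CG31183 and CG7149 are among the rows where they are darker.

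The gene with the highest late CPM was CG45263 (chr3R:8364328-8477617, minus strand, in the Release 6 assembly used for all positions here), which alone made up 20.8% of the summed late CPM. Its somatic levels were 19.8, 4.87 and 12.3 CPM at early, 494, 113 and 134 CPM at mid and 1813, 1508 and 2469 CPM at late. The 3 mid libraries thus lay far apart, with replicate 1 more than 3 times above the other two, while late stood 156-fold above early in the means. It is also the longest of the 76 genes, with a span of 113290 bases and 18 merged exons.

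Most of the other highest genes were already abundant at early and had smaller ratios. CG5758 (chr2L:18119995-18129862, plus strand) had 386, 380.5 and 387 CPM at early, 593, 473 and 387 CPM at mid and 1042, 1078 and 1009 CPM at late, a ratio of 2.71. CG34347 (chr3R:31311157-31371748, plus strand) had 244, 268 and 336 CPM at early, 585, 362 and 259 CPM at mid and 970.5, 888 and 1009.9 CPM at late, a ratio of 3.39. In both, mid replicate 3 was within the early range or close to it, and the late libraries stood clear of all others.

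Of the next genes by late CPM, CG9626 (chr3R:8293843-8300978, minus strand) averaged 459.97 ± 20.9 CPM at late and 116 ± 37.8 CPM at early (SD, n = 3 each). CG9932 (chr2L:13021868-13060140, minus strand) averaged 316 ± 13.5 CPM at late and 93.2 ± 8.93 CPM at early. CG42663 (chr2R:12705172-12751545, plus strand) averaged 296 ± 14.4 CPM at late and 101 ± 14 CPM at early. The late libraries of each stood clear of the early ones. The order of the genes so far is one of CPM. Per kilobase of exon the late somatic level of CG5758 was 285 CPM, that of CG45263 was 142 CPM and that of CG9932 was 35.1 CPM. The highest of the 76 per kilobase was CG43886, named here after its values were seen, at 324 CPM, a short gene with 347 exonic bases whose RefSeq synonym is a lincRNA number.

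The rest of the 10 highest by CPM were CG33144, CG9003, CG9416 and CG7029. CG33144 (chr2R:10740054-10798709, minus strand), which also carries a lincRNA number as synonym, averaged 281 ± 5.92 CPM at late and 60.6 ± 13.2 CPM at early. CG9003 (chr2R:11641477-11651616, minus strand), whose synonym FBXL2 is the name of a human F-box protein, a class that selects proteins for ubiquitin ligases, averaged 261 ± 7.81 CPM at late and 74 ± 16 CPM at early. CG7029 (chr3R:22750901-22794030, plus strand) averaged 198 ± 34.5 CPM at late and 81.2 ± 3.41 CPM at early, the smallest ratio of the 76 at 2.44. CG9416 (chr2R:19367248-19373702, minus strand) was different in having a low early level, with 25, 18.1 and 22.4 CPM at early, 222, 132 and 85.8 CPM at mid and 258, 263 and 221 CPM at late.

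**Figure D2:**
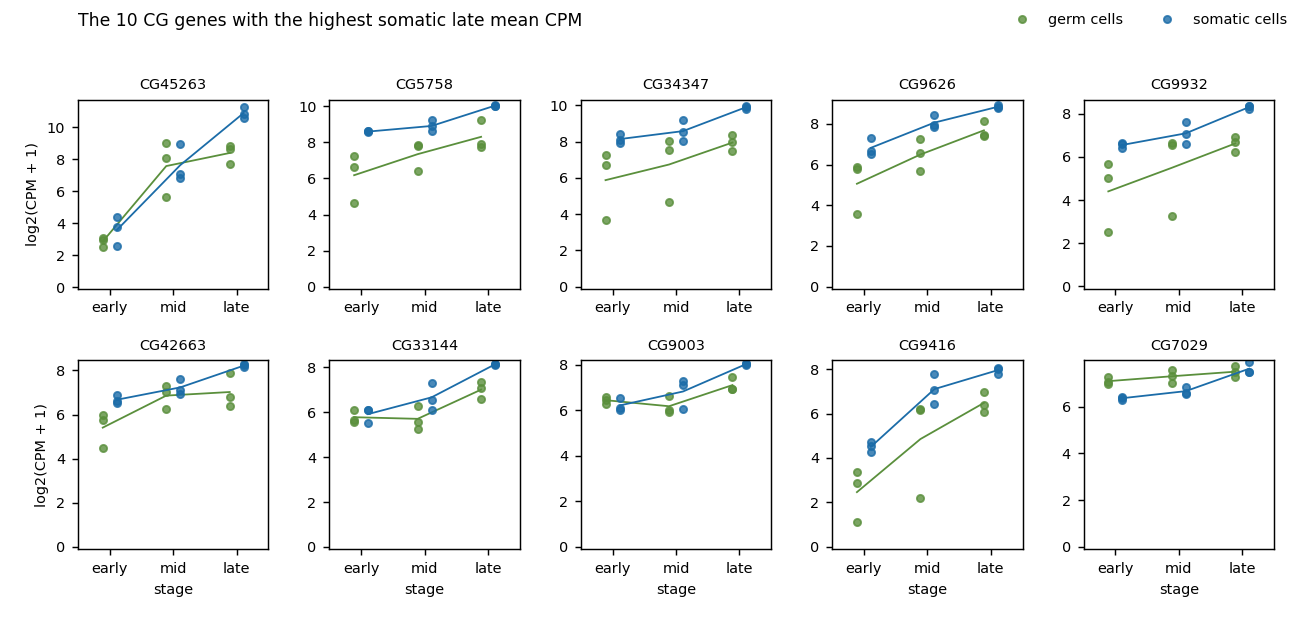
The 10 genes with the highest late somatic mean in sorted germ cells and sorted somatic cells at early, mid and late, as log2(CPM + 1), with 1 point per library and a line through the means of these log values. CG45263 has a somatic mean of 1930.0 CPM at late, against 12.3 CPM at early, and CG7029 is the gene whose germ and somatic points lie closest at late.

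At the other end stood genes that were close to or at 0 in early somatic cells. In 4 genes no count was found in any of the 3 early somatic libraries, where 3 counts over the group amount to 0.0215 CPM, and 12 genes, these 4 included, averaged under 1 CPM. CG46321 (chr2R:10205454-10227957, minus strand) was 0 in all early libraries, had 2.17, 0 and 0 CPM at mid and 51.4, 43.3 and 53.2 CPM at late, at least 2290-fold higher late than the floor of 3 counts. CG6739 (chr2L:7608389-7616533, plus strand) was also 0 at early, with 5.16, 0.131 and 0 CPM at mid and 40.7, 43.6 and 40.7 CPM at late, at least 1930-fold higher. In both, the late libraries were close to each other and the only mid library above 1 CPM was replicate 1.

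CG34377 (chr3R:22308663-22324094, minus strand) was 0 at early and had 5.52, 3.07 and 1.73 CPM at mid and 23.2, 21.9 and 32.1 CPM at late, at least 1190-fold above the early floor. CG11380 (chrX:1191308-1196660, plus strand) was 0 at early and had 3.01, 1.05 and 1.06 CPM at mid and 17.8, 15.8 and 17.5 CPM at late, at least 790-fold above it. Each of these 4 genes was therefore hardly seen in early somatic cells and reached 17.0 to 49.3 CPM on average at late.

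Among genes with some early counts the largest ratio after CG45263 was that of CG17036 (chr2L:12698918-12700746, minus strand), with 0.969, 0.958 and 0 CPM at early, 5.9, 2.3 and 5.77 CPM at mid and 31.1, 37.2 and 32.7 CPM at late. CG15822 (chr3L:2153201-2163863, minus strand) averaged 33.1 ± 3.79 CPM at late and 0.905 ± 0.818 CPM at early. CG4822 (chr2L:116970-121754, minus strand) averaged 22.1 ± 4.96 CPM at late and 0.759 ± 1.31 CPM at early. These ratios, 52.4, 36.6 and 29.2, rest on early means under 1 CPM. CG32354 (chr3L:8415857-8422205, minus strand) averaged 34.2 ± 4.98 CPM at late and 1.24 ± 1.21 CPM at early, and CG7860 (chrX:15568993-15570369, plus strand), a gene of a single exon, averaged 22.2 ± 1.92 CPM at late and 0.909 ± 0.789 CPM at early.

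The genes just inside the fold threshold were CG3038, CG10147 and CG33217, whose lowest late somatic library was 2.02, 2.05 and 2.05 times the highest early one. CG4393, CG42259 and CG10479 were just outside, at 1.996, 1.98 and 1.97. By level, CG6661, CG10147 and CG10814 were just inside with late means of 10.5, 10.6 and 11 CPM, and CG32939, CG8501 and CG46304 were just outside with 9.74, 9.23 and 8.72 CPM.

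On the linear CPM scale the mid stage lay nearer to early than to late for most of the genes. The place on a log scale was not computed. With the early mean set to 0% and the late mean to 100%, the median place of the mid mean was 26.8%, with 33 genes under 25%, 13 genes over 50% and 2 genes, CG31183 and CG4822, below their early mean. In 46 genes every mid library was above every early library, in 65 every mid library was below every late library, and both held in 36. The shares over all genes were not computed. Since the choice sets late somatic libraries above early ones, it favours such counts, and they are a description only. The mid libraries did not agree well, since replicate 1 was the highest of the 3 in 59 of the 76 genes and the median place was 42.4% with replicate 1 alone, 20.7% with replicate 2 alone and 12% with replicate 3 alone. Without replicate 1 the median was 18.8%.

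The genes with the highest ratio of the mid to the late mean were CG33217, CG14253, CG12768, CG17224 and CG8468. CG33217 (chr3L:23126025-23132209, plus strand) had 23.4, 26.5 and 26.6 CPM at early, 58.7, 56.8 and 56.4 CPM at mid and 65.7, 54.5 and 77.1 CPM at late, so the mid libraries lay within the late range. CG14253 (chr3R:26978541-26985706, plus strand) had 11.9, 8.38 and 7.7 CPM at early, 41.8, 17.8 and 7.88 CPM at mid and 25.9, 24.3 and 29 CPM at late, and here the mid and late libraries overlapped. CG17224 (chr2L:3016441-3018308, minus strand) averaged 2.47 ± 2.38 CPM at early, 8.87 ± 2.73 CPM at mid and 11.8 ± 1.005 CPM at late. CG12768 (chr3L:22910491-22923532, plus strand) averaged 63.2 ± 11.2 CPM at early, 122 ± 17.4 CPM at mid and 161 ± 4.5 CPM at late.

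CG15822, CG4822 and CG31183 were about as low at mid as at early, or lower. CG15822 had 0, 1.59 and 1.12 CPM at early, 1.47, 1.67 and 0 CPM at mid and 37.3, 30.0 and 32 CPM at late. CG4822 had 0, 0 and 2.28 CPM at early, 0.521, 0.689 and 0 CPM at mid and 19.98, 18.6 and 27.8 CPM at late. CG31183 (chr3R:15857871-15875939, minus strand), whose synonyms Gyc89A and DrGC-2 name a receptor guanylyl cyclase, an enzyme that makes cyclic GMP, had 2.82, 3.11 and 5.49 CPM at early, 1.4, 0.984 and 0.673 CPM at mid and 14, 12.3 and 17.9 CPM at late. All of its mid libraries were below all of its early ones.

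Marker lists of other cell types were read beside these somatic levels. The sum of 9 hemocyte genes was 1624 to 1912 CPM in late somatic libraries, against 33.4 to 91.7 CPM in early ones. It was carried by Pxn, a peroxidasin of the extracellular matrix, at 1621, 1542 and 1818 CPM late, against 64.5, 9.49 and 11.3 CPM early, while eater, He and PPO2 were at 0 in every late somatic library. Another gene of the list, srp, had 79.7, 81.7 and 93 CPM late, against 27.2, 23.9 and 22.4 CPM early. The sum of 8 muscle genes was 170 to 272 CPM late and 124 to 180 CPM early, with Mlc1 at 0 late. This muscle sum was carried by sls, at 189, 156 and 255 CPM late, against 137, 104 and 157 CPM early. The sum of 9 fat body genes was 3.12 to 6.14 CPM late and 1.98 to 3.67 CPM early, with Lsp1alpha at 0 late. The part of such cells in the levels of the 76 genes was not tested beyond these values.

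In whole ovaries, which were not used to choose the genes, 46 of the 76 were higher at late than at early and 5 were lower. Over all 10060 genes tested, 8.39% were called higher and 13.5% lower. Setting aside CG34377, which had no early count, the 46 rose by 0.65 to 8.64 on the log2 scale. Their median was 2.18, with 43 over 1 and 25 over 2. Of the 25 genes with no call, 20 had a positive and 5 a negative log2 fold change. The median log2 fold change was 1.46 over the 76 genes, against -0.05 over all genes tested.

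Read by overlap alone, every late whole ovary library was above every early one in 56 of the 76 genes (73.7%), against 28.6% of all genes tested, and every late library was below every early one in 6 (7.89%), against 19.7%. Across the 76 genes the log2 ratio in somatic cells and the log2 fold change in whole ovaries had a Pearson r of 0.608 and a Spearman rho of 0.404. These are a description across genes, which share the same libraries and are not replicates. The somatic ratio also chose the genes, which cuts its range, and for the 4 genes with no early somatic count it is a lower bound. CG34377 entered with a fitted whole ovary value, since it had no early count there. The correlations were not computed without these genes. The 76 genes together took 0.598 to 0.721% of whole ovary counts at late, against 0.176 to 0.230% at early.

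**Figure D3:**
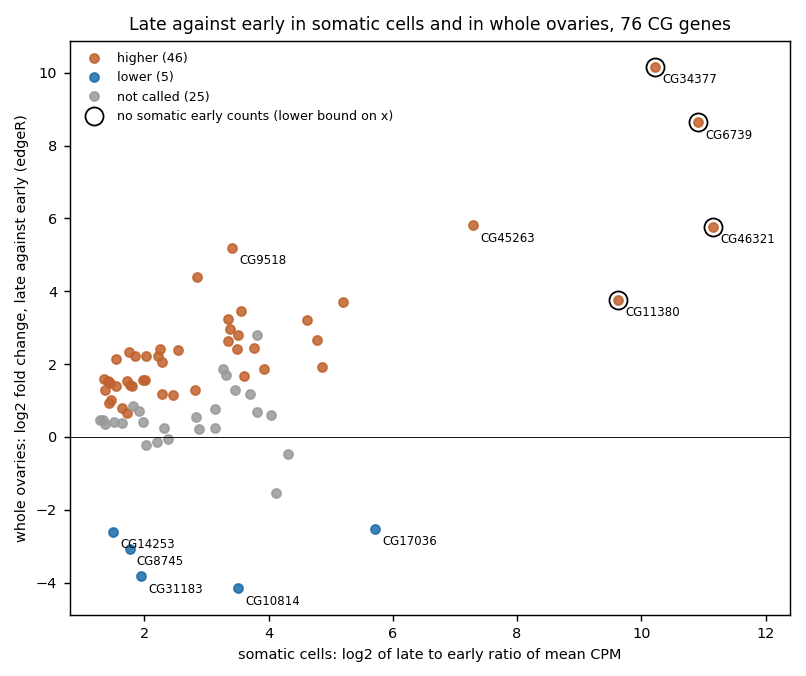
Each of the 76 genes by its log2 ratio of late to early mean CPM in somatic cells (horizontal axis) and its log2 fold change of late against early in whole ovaries (vertical axis), coloured by the call in whole ovaries, with rings around the 4 genes that had no early somatic count and whose horizontal position is a lower bound. All points lie above 1 on the horizontal axis, which the choice of the genes sets, 46 were called higher in whole ovaries, and the 5 called lower lie between -4.16 and -2.52, while the height of CG34377, which had no early whole ovary count, is a fitted value and no bound.

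The 5 genes with the smallest adjusted p among those higher in whole ovaries were CG9416, CG9518, CG46321, CG33144 and CG8468. CG9416 had 379, 334 and 306 CPM in late whole ovaries, against 53.5, 55.5 and 57.7 CPM in early ones (log2 fold change 2.42 ± 0.13 (SE), adjusted p = 4.23e-06). CG9518 (chrX:14862989-14871181, minus strand), whose synonym GMCzeta1 places it among the glucose-methanol-choline oxidoreductases, had 30.0, 22.9 and 30.1 CPM late, against 0.565, 0.498 and 0.915 CPM early (log2 fold change 5.18 ± 0.28 (SE), adjusted p = 4.48e-06). CG46321 had 71, 48.4 and 47.5 CPM late, against 0.628, 1.27 and 0.811 CPM early (log2 fold change 5.76 ± 0.44 (SE), adjusted p = 2.97e-05). In all 3 the late libraries stood well clear of the early ones.

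CG33144 had 191, 211 and 182 CPM late, against 42.1, 33 and 32.6 CPM early (log2 fold change 2.23 ± 0.18 (SE), adjusted p = 3.49e-05). CG8468 (chr2R:14219898-14230620, plus strand) had 259, 238 and 228 CPM late, against 69.6, 64.5 and 83.6 CPM early (log2 fold change 1.55 ± 0.12 (SE), adjusted p = 3.49e-05). These are smaller changes than that of CG9518, and again the groups did not overlap.

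Genes with the largest somatic ratios mostly rose in whole ovaries too. CG45263 had 1384, 848 and 749 CPM late, against 11.4, 9.1 and 27.2 CPM early (log2 fold change 5.81 ± 0.53 (SE), adjusted p = 7.47e-05). CG6739 had 44.5, 61.5 and 46.3 CPM late, against 0.0471, 0.0453 and 0.203 CPM early (log2 fold change 8.64 ± 0.73 (SE), adjusted p = 4.96e-05). CG34377 had 8.95, 7.36 and 5.87 CPM late and no count in any early library, at least 179-fold above 3 counts over the early group (adjusted p = 0.000547). The groups did not overlap in any of the 3.

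CG11380 had 17.7, 19.7 and 21.4 CPM late, against 0.0941, 2.85 and 0.814 CPM early (log2 fold change 3.77 ± 0.82 (SE), adjusted p = 0.00649). Early replicate 2 was the highest of the early libraries and still far under the late ones, and the call was lost when early replicate 3 (adjusted p = 0.0139), mid replicate 3 (0.012) or any one of the late libraries (0.0203 to 0.0229) was left out.

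The rest of the genes with the largest somatic ratios, CG17036 apart, were higher as well. CG15822 had 16.6, 20.1 and 16.9 CPM late, against 0.753, 0.906 and 1.97 CPM early (log2 fold change 3.71 ± 0.35 (SE), adjusted p = 7.65e-05). CG32354 had 16.4, 20.05 and 22.1 CPM late, against 2.54, 2.36 and 3.19 CPM early (log2 fold change 2.66 ± 0.23 (SE), adjusted p = 4.89e-05). Both had single-digit early levels. CG7860 had 36.1, 51.1 and 57.4 CPM late, against 5.36, 6.75 and 1.39 CPM early (log2 fold change 3.20 ± 0.54 (SE), adjusted p = 0.00178). CG4822 had 80.6, 91.8 and 78.5 CPM late, against 23.2, 21.1 and 13.3 CPM early (log2 fold change 1.91 ± 0.27 (SE), adjusted p = 0.000756). The CPM of CG4822 in whole ovaries was above that in somatic cells at both stages.

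Of the 10 genes with the highest somatic level, 8 rose in whole ovaries, CG45263, CG9416 and CG33144 above among them. CG34347 had 754, 617 and 558 CPM late, against 107, 91.5 and 141 CPM early (log2 fold change 2.33 ± 0.24 (SE), adjusted p = 0.000127). CG42663 had 294, 244 and 238 CPM late, against 39.1, 37 and 80.8 CPM early (log2 fold change 2.14 ± 0.28 (SE), adjusted p = 0.000436). CG9626 had 189, 215 and 188 CPM late, against 47.4, 50.1 and 80.9 CPM early (log2 fold change 1.56 ± 0.23 (SE), adjusted p = 0.000867). The groups did not overlap in these 3 genes. CG5758 had 554, 558 and 516 CPM late, against 137, 151 and 223 CPM early (log2 fold change 1.49 ± 0.17 (SE), adjusted p = 0.000181). CG9932 had 227, 196 and 164 CPM late, against 60.9, 53.4 and 77.5 CPM early (log2 fold change 1.43 ± 0.17 (SE), adjusted p = 0.000265). These 2 had smaller changes, again without overlap.

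CG9003 and CG7029 did not reach the threshold. CG9003 had 183, 178 and 134 CPM late, against 90.7, 63.9 and 84 CPM early (log2 fold change 0.86 ± 0.22 (SE), adjusted p = 0.0143). CG7029 had 159, 131 and 114.7 CPM late, against 72.1, 68.6 and 119.99 CPM early (log2 fold change 0.46 ± 0.20 (SE), adjusted p = 0.104). CG9003 was called without mid replicate 2 (adjusted p = 0.0086) and CG7029 without early replicate 3 (adjusted p = 0.00736).

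Another 40 genes were not picked out by level, ratio, p or place near a threshold. They averaged 11.5 to 168 CPM in late somatic cells, and in whole ovaries 22 of them were higher at late than at early, 0 were lower and 18 had no call. The 0 is set by how the 40 were picked, since all 5 genes called lower were named for their p. The 5 higher genes with the smallest p were left out of the 40 as well. Over all genes tested, 8.39% were called higher and 13.5% lower. The 22 changed by 0.65 (CG14440) to 4.402 (CG3097) on the log2 scale. CG3097 had 37.6, 52.3 and 56.3 CPM late, against 1.69, 2.58 and 1.76 CPM early (log2 fold change 4.402 ± 0.49 (SE), adjusted p = 0.000197). CG14440 had 26.1, 26 and 25.8 CPM late, against 12.6, 13.4 and 17.7 CPM early (log2 fold change 0.65 ± 0.15 (SE), adjusted p = 0.00749), a small change between groups that did not overlap. The 18 without a call ranged over -1.54 to 2.79. The lowest of them was CG7149 (chr2L:7786160-7790557, minus strand), named here after its values were seen, with 31.5, 28.1 and 34.1 CPM late, against 109.5, 76.2 and 47.8 CPM early (log2 fold change -1.54 ± 0.44 (SE), adjusted p = 0.0231), so that every late library was below every early one.

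The 5 genes that fell in whole ovaries while higher in late than in early somatic cells were CG17036, CG8745, CG10814, CG14253 and CG31183. CG17036 had 3.87, 3.37 and 4.42 CPM late, against 23.3, 20.3 and 14.1 CPM early (log2 fold change -2.52 ± 0.30 (SE), adjusted p = 0.000278). CG8745 (chr3L:13860027-13866905, minus strand) had 7.92, 9.33 and 7.55 CPM late, against 61.3, 65.7 and 56.2 CPM early (log2 fold change -3.08 ± 0.44 (SE), adjusted p = 0.000697). CG10814 (chr2R:13375975-13377731, minus strand), whose synonym gamma-BBH is the hydroxylase that makes carnitine in mammals, had 2.84, 4.09 and 3.05 CPM late, against 63.5, 42.5 and 49.9 CPM early (log2 fold change -4.16 ± 0.63 (SE), adjusted p = 0.00103). At early these 3 genes were far higher in whole ovaries than in somatic cells, where their means were 0.642, 4.28 and 0.973 CPM.

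CG14253 had 1.25, 1.65 and 0.453 CPM late, against 5.75, 4.28 and 8.35 CPM early (log2 fold change -2.61 ± 0.49 (SE), adjusted p = 0.0031), and its call was lost without late replicate 1 (adjusted p = 0.0135). CG31183 had 0.0861, 0.0961 and 0.172 CPM late, against 1.22, 1.09 and 2.54 CPM early (log2 fold change -3.83 ± 0.85 (SE), adjusted p = 0.00733), and its call was lost when any 1 library other than mid replicate 1 or mid replicate 2 was left out (adjusted p 0.0128 to 0.0428). Both were low in whole ovaries at every stage. Leaving out the 4 genes with no early somatic count, early whole ovary means were over 5 times the early somatic means in 10 genes. Among them were CG17036, CG8745 and CG10814.

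Sums of marker genes in whole ovaries were read beside these changes. The 9 fat body genes summed to 6317 to 11202 CPM at late, against 17172 to 22264 CPM at early, with 4 of the 9 called higher and 3 lower, and none at 0 in all 3 libraries of either stage. The 8 muscle genes summed to 29.9 to 64.7 CPM late, against 226 to 1196 CPM early, with 6 of 8 called lower and Mlc1 at 0 late. The 9 hemocyte genes, of which 3 were called lower, summed to 498 to 505 CPM late, against 430 to 904 CPM early. The 10 somatic gonad genes, of which 9 were called higher and none lower, summed to 3047 to 3341 CPM late, against 964 to 1636 CPM early. The gene of that list without a call was tj (log2 fold change -0.63 ± 0.15 (SE), adjusted p = 0.0114). The list also rose within sorted somatic cells, with sums of 3741 to 3952 CPM late, against 1433 to 1849 CPM early. The 10 germ cell genes, of which 1 was called higher and 4 lower, summed to 865 to 996 CPM late, against 966 to 1545 CPM early, and no gene of these 3 lists was at 0 in all 3 libraries of either stage. The part of these cells in the changes of the 76 genes was not tested.

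**Figure D4:**
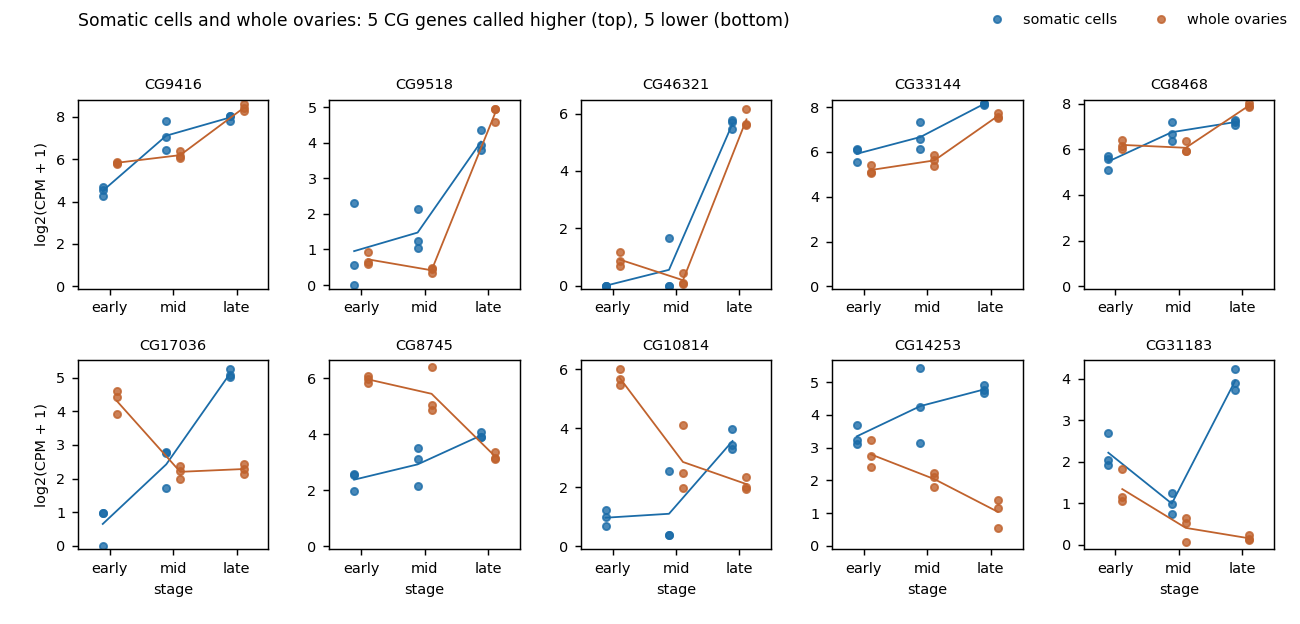
The 5 genes called higher (top) and the 5 called lower (bottom) in whole ovaries with the smallest adjusted p, in somatic cells and whole ovaries at early, mid and late, as log2(CPM + 1), with 1 point per library and a line through the means of these log values. In the upper panels both tissues are highest at late, and in the lower panels the somatic mean is highest and the whole ovary mean lowest or near its lowest at late.

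Calls in whole ovaries were few at mid against early and many at late against mid. At mid against early, 1 of the 76 genes was higher and 1 lower, beside 0.398% and 0.596% of all genes, and 18 genes in each direction had an unadjusted p under 0.05. With DESeq2 the counts were 6 and 7. For the unadjusted p and for DESeq2 the shares of all genes were not computed. Every mid library was above every early one in 11 genes (14.5%), against 17.1% of all genes tested, and below in 18 (23.7%), against 10.3%. The gene that rose was CG31075 (chr3R:26985624-26988517, minus strand), with 121, 181 and 178 CPM at mid, against 34.8, 31.4 and 24.1 CPM at early (log2 fold change 2.45 ± 0.27 (SE), adjusted p = 0.00338). The gene that fell was CG17036, with 2.95, 4.23 and 3.7 CPM at mid, against 23.3, 20.3 and 14.1 CPM at early (log2 fold change -2.38 ± 0.30 (SE), adjusted p = 0.0061). No gene was called higher without early replicate 2, mid replicate 3 or any one of the late libraries, and none lower without early replicate 1 or 2, mid replicate 1 or 3 or any one of the late libraries.

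At late against mid, 40 of the 76 genes were higher and 1 was lower, beside 5.76% and 9.07% of all genes tested, with a median log2 fold change of 1.19 over the 76 and -0.11 over all genes. Every late library was above every mid library in 61 genes (80.3%), against 30.5% of all genes tested, and below in 2 (2.63%), against 24.4%. All of the 40 were without a call at mid against early, and 36 were also among the 46 that were higher at late than at early. Between the same stages the 9 fat body genes summed to 6317 to 11202 CPM at late, against 34394 to 70994 CPM at mid, with 5 of 9 called lower, and the 8 muscle genes to 29.9 to 64.7 CPM at late, against 154 to 509 CPM at mid, with 5 of 8 called lower and Mlc1 at 0 late. Of the 9 hemocyte genes 3 were called lower, and of the 10 somatic gonad genes, with sums of 3047 to 3341 CPM at late, against 1206 to 1999 CPM at mid, 4 were called higher. In sorted somatic cells the somatic gonad list summed to 3741 to 3952 CPM at late, against 2890 to 3390 CPM at mid. At mid against early 5 of the 9 fat body genes were called higher and none lower, with early sums of 17172 to 22264 CPM. The part of these cells in the counts of the 76 genes was not tested.

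CG6739 had 44.5, 61.5 and 46.3 CPM at late, against 0.357, 0 and 0 CPM at mid (log2 fold change 8.39 ± 0.73 (SE), adjusted p = 7.65e-05). CG46321 had 71, 48.4 and 47.5 CPM at late, against 0.348, 0.0562 and 0.0487 CPM at mid (log2 fold change 8.20 ± 0.54 (SE), adjusted p = 1.65e-05). CG4822 had 80.6, 91.8 and 78.5 CPM at late, against 6.52, 7.47 and 4.39 CPM at mid (log2 fold change 3.55 ± 0.30 (SE), adjusted p = 6.59e-05), and it is a gene whose mid libraries were also below the early mean in somatic cells. Of the 33 genes with a somatic mid level under 25% of the way, 18 were higher at late against mid, of the 30 between 25% and 50% 16 were, and of the 13 over 50% 6 were. The one gene lower at late was CG8745 (log2 fold change -2.79 ± 0.43 (SE), adjusted p = 0.00166), a call lost without late replicate 1 or late replicate 3.

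In germ cells none of the 75 genes tested was called at late against early, and neither was any of the 10340 genes of that fit (0.0% in each direction). A fit that calls no gene at all does not show that these genes stayed the same. At an unadjusted p under 0.05, 18 of the 75 were higher and 0 lower, DESeq2 called 6 higher (CG45263, CG46321, CG46466, CG6739, CG7582 and CG9416), and limma voom called 0. Shares of all genes at that unadjusted p and with these tools were not computed, so the counts stand without a background. The log2 fold change was positive in 71 of the 75, with a median of 1.20, against 0.01 over all genes tested. Every late library was above every early one in 41 genes (54.7%), against 13.0% of all genes, and the reverse held in 0, against 13.0%.

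CG45263 had 393, 205 and 459 CPM in late germ cells, against 6.64, 4.72 and 7.55 CPM in early ones (log2 fold change 5.84 ± 0.85 (SE), adjusted p = 0.102). CG9416 had 83.3, 66.3 and 124 CPM late, against 1.2, 6.39 and 9.32 CPM early (log2 fold change 4.01 ± 1.10 (SE), adjusted p = 0.496). CG6739 had 5.59, 12.7 and 35 CPM late, against 0.0461, 0 and 0 CPM early, a ratio of 1530.0 with a 95% counting interval of 274 to 60400 that rests on 1 early count. In these 3 genes late and early germ libraries did not overlap, and in CG6739 the late libraries themselves were spread most widely.

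CG10814 had 2.5, 1.08 and 8.23 CPM late, against 0.0461, 0 and 0 CPM early, also with 1 early count (ratio 378, interval 67.4 to 15000). In whole ovaries the same gene was lower at late than at early. CG7582 (chr3R:29680241-29682278, minus strand) had 3.56, 3.71 and 5.22 CPM late, at least 155-fold above 3 counts over an early group at 0. CG34377 had 2.29, 0.84 and 8.48 CPM late, at least 144-fold above it. CG46312, which lies in eIF5 and is considered below, had 0, 68.4 and 20.7 CPM late and 0 in every early library. It went untested because its counts did not pass the low-count filter.

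Beside these germ cell values, the list of 10 somatic gonad genes had a median log2 fold change of 1.33 in the same germ cell contrast, with 0 of 10 called, and its sum was 1060 to 2021 CPM in late germ cells, against 117 to 951 CPM in early ones. In sorted somatic cells the same list rose too, with sums of 3741 to 3952 CPM late, against 1433 to 1849 CPM early. The germ cell list had a median of 0.03. Whether the germ cell libraries held RNA of somatic cells, and its part in the values of the 76 genes, was not tested.

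Set side by side with somatic cells, germ cells held a falling share of the level of these genes. The median over the genes of the germ mean as a percent of the somatic mean took the values 131% (early), 77.3% (mid) and 49.1% (late). Since late somatic libraries chose the genes for a high level and early ones for a low level, this course is a description only. At early the 4 genes with no early somatic count have no such percent and are left out of the median. Among the rest, 42 had the higher mean in germ cells at early. Of all 76 genes, 28 had it at mid and 6 at late.

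**Figure D5:**
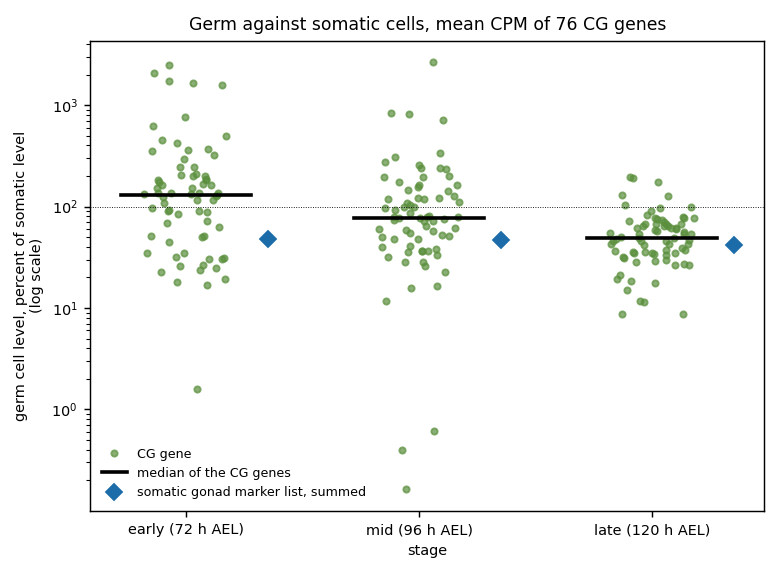
Germ cell mean as a percent of the somatic mean (log axis) for each of the 76 genes at early, mid and late, with 1 point per gene, a bar at the median over the genes and a diamond for the summed somatic gonad list. The gene medians are 131%, 77.3% and 49.1%, the diamonds stand at 47.7%, 46.5% and 41.6%, and 4 genes with no early somatic counts, 2 with no germ counts at early and 3 with none at mid are not drawn.

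The mid libraries had no part in the choice, and there germ and somatic cells were tested, with a spread drawn also from the early and late somatic libraries. Of the 76 genes 1 was higher in germ cells and 5 were lower, beside 3.88% and 3.59% of 11243 genes tested, and 7 and 16 had an unadjusted p under 0.05. The share of all genes at that unadjusted p was not computed. Every germ library was above every somatic one in 10 genes, against 10.8% of all genes tested, and below in 22, against 16.2%. The median log2 fold change was -0.48, against -0.03 over all genes. With limma voom the 2 medians were -1.53 and -0.31, and with the replicate block -0.79 and -0.26. When the 6 mid libraries were fitted without the other stages, no member was called in either direction, so these calls rest on the spread shared over all 18 sorted libraries. Among those are the libraries of the choice, and the fold threshold can favour genes whose early and late somatic libraries vary little. The calls are therefore not independent of the choice.

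The gene higher in germ cells was CG15312 (chrX:10055629-10070868, minus strand), with 40.7, 60.1 and 34.9 CPM in germ cells, against 5.91, 4.59 and 6.15 CPM in somatic cells at mid (log2 fold change 2.93 ± 0.42 (SE), adjusted p = 0.000235). At late it had 34.5, 30.6 and 22.9 CPM in germ cells, against 16.5, 16.3 and 17.3 CPM in somatic cells. All germ libraries were above all somatic ones at both stages, the late values being a description.

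Some of the 5 lower genes share exons with another gene, so their counts carry the uncertainty on overlaps described below. Of the 5, CG34377 and CG31183 had no count in any germ library at mid. CG34377 had 5.52, 3.07 and 1.73 CPM in somatic cells, and germ cells were at least 63.8-fold lower (adjusted p = 0.00278). CG31183 had 1.4, 0.984 and 0.673 CPM in somatic cells, and germ cells were at least 18.9-fold lower (adjusted p = 0.00822), a call lost when any 1 library other than germ early replicate 1 was left out (adjusted p 0.0101 to 0.0251). Both floors are 3 counts over the germ group at mid.

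CG7582, CG31808 and CG12643 had 1 to 2 germ counts at mid. CG7582 had 0, 0.0382 and 0 CPM in germ cells, against 8.16, 5.44 and 9.75 CPM in somatic cells, a ratio of 0.00231 (counting interval 5.85e-05 to 0.0129, adjusted p = 0.000218). CG31808 (chr2L:16704286-16716195, minus strand) had 0, 0.0764 and 0 CPM in germ cells, against 9.47, 4.03 and 5.72 CPM in somatic cells, a ratio of 0.00479 (0.000579 to 0.0173, adjusted p = 0.0028). CG12643 (chrX:10264233-10265263, minus strand) had 0.103, 0 and 0 CPM in germ cells, against 4.9, 7.99982 and 3.84 CPM in somatic cells, a ratio of 0.00327 (8.28e-05 to 0.0183, adjusted p = 0.00346). The last call was lost without somatic mid replicate 2 (adjusted p = 0.0117) or germ mid replicate 3 (0.0141). CG31808 and CG12643 are short, with longest coding sequences of 56 and 77 codons, and both had germ counts at early and at late. At early, mid and late their germ means were 182%, 0.397% and 56.6% of the somatic mean for CG31808. For CG12643 they were 90.4%, 0.617% and 28.9%. The germ libraries at mid held counts for 60, 67 and 58 of the 76 genes, against 67 to 71 at early and 75 to 76 at late. The part of this lower detection in the 5 calls was not tested.

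Seen by known roles, 9 of the 76 carry a RefSeq synonym that names a protein family described here, and they were taken up for that synonym and not for their values. CG9932 (Ef4A), CG2841 (ptr) and CG7149 (cpt) also have synonyms in the style of a gene name, but their roles were not certain enough to give. The enzymes of sugar modification were CG3038, a beta-1,3-galactosyl or N-acetylglucosaminyl transferase by its synonyms, and CG31637, a sulfotransferase (d6ST1). CG3038 had 128, 145 and 162 CPM in late whole ovaries, against 32.3, 41.4 and 58.3 CPM in early ones (log2 fold change 1.54 ± 0.19 (SE), adjusted p = 0.000352). CG31637 had 56.5, 63.4 and 56.9 CPM late, against 17.8, 16.6 and 19.7 CPM early (log2 fold change 1.51 ± 0.13 (SE), adjusted p = 4.64e-05). Both rose in whole ovaries, as did CG9518 above and CG9426 (log2 fold change 1.02 ± 0.12 (SE), adjusted p = 0.000241), which bears the name of the kelch-repeat protein Ipp of mouse and human.

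The other enzymes were low and were not called higher. CG5065, a fatty acyl-CoA reductase by its synonym FAR1, had 12.3, 11.5 and 12.2 CPM in late somatic cells, against 0.27, 0.667 and 1.62 CPM in early ones, and in whole ovaries 3.96, 5.82 and 1.89 CPM late, against 1.46, 2.58 and 2.31 CPM early (log2 fold change 0.70 ± 0.45 (SE), adjusted p = 0.269). CG6661, whose synonym PUT2 is the yeast enzyme of proline breakdown, had 4.93, 2.47 and 5.66 CPM late, against 3.83, 3.34 and 0.326 CPM early in whole ovaries (log2 fold change 0.55 ± 0.72 (SE), adjusted p = 0.59). The remaining 3 of the 9, CG9003, CG10814 and CG31183, are described above.

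The 76 genes lay on all chromosome arms, with 20 on X, 16 on 2L, 13 each on 2R, 3L and 3R, and 1 on chromosome 4. X held 26.3% of them and 19.2% of the other 1422 CG genes at 10 CPM or more in late somatic cells. The median gene span was 6667 bases, against 2734 for those other genes, and the median longest intron was 2255.5 bases, against 159. The median exonic length was 2766.5 bases, against 2130, and the median coding sequence 581.5 codons, against 449. These medians are given without a test, and the genes of both sets vary widely.

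In 21 of the 76 genes exons overlap those of another gene, 7 of them on the same strand, and in 5 the overlap covers more than 20% of the exonic bases. Whether the counting used strand is not given in the sources used here, so the counts of such genes are uncertain. The exons of CG46321 are covered wholly by same-strand exons of other genes, chiefly Hr3, a nuclear receptor of the ecdysone cascade. Hr3 itself had 144, 126 and 185 CPM in late somatic cells, against 0.879, 0 and 0.851 CPM in early ones, and 211, 189 and 188 CPM in late whole ovaries, against 2.2, 2.89 and 2.61 CPM in early ones. Reads of this pair cannot be told apart where exons are shared.

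CG46312 lies within eIF5, a translation initiation factor whose somatic means of 417.2 CPM late and 395.8 CPM early were close, and CG6661 lies within CG6650. Of the exonic bases of CG14253, 69.6% are shared with CG46313 on the same strand or, where the ends of both genes meet, with its neighbour CG31075 on the other strand. CG14253 and CG31075 were the only 2 of the 76 genes within 5 kb of each other. In whole ovaries they differed in direction, since CG31075 had 92.9, 112 and 129 CPM late, against 34.8, 31.4 and 24.1 CPM early (log2 fold change 1.68 ± 0.26 (SE), adjusted p = 0.00113), whereas CG14253 fell. CG5292 overlaps Mur89F, a mucin-related gene, over 41.9% of its exonic bases on the other strand. Mur89F had 979, 1051 and 614 CPM in late somatic cells, against 3.52, 4.38 and 3.9 CPM in early ones. Among the 55 genes with no overlap, 32 were higher and 4 lower in whole ovaries at late against early.

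Counting Hr3 and Mur89F, 8 of the 76 lay within 5 kb of a gene with another symbol that passed the same thresholds in somatic cells. CG31637 lies near eya, a transcription factor of the somatic gonad, which had 61.3, 66.4 and 78.9 CPM in late somatic cells, against 13.3, 12.7 and 16.3 CPM in early ones. CG42324 lies near Eip63E, a cyclin-dependent kinase gene first found as induced by ecdysone, which had 600.05, 574 and 597 CPM late, against 190.2, 165 and 243 CPM early. CG4297 lies near ush, a zinc finger cofactor of GATA factors, which had 290.3, 267 and 274 CPM late, against 71, 71.4 and 119 CPM early. The others were CG46312 near exd, CG11686 near Ace and CG5758 near Grl36b.

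Of a list of 21 genes of the ecdysone response, 20 were tested in whole ovaries, and at late against early 11 were higher and 1 was lower, with a median log2 fold change of 2.39. Among them Hr3 changed by 6.06 ± 0.31 (SE, log2, adjusted p = 4.23e-06), Eip75B, an early-response nuclear receptor, by 2.26 ± 0.14 (1.03e-05) and ImpE1, an ecdysone-inducible gene of imaginal discs, by 5.53 ± 0.54 (9.46e-05), while ftz-f1, a nuclear receptor of the following hormone trough, was the one that fell (-1.03 ± 0.23, adjusted p = 0.00809). At mid against early 0 were higher and 3 lower, and at late against mid 12 were higher and 1 lower. The 76 genes had 46, 1 and 40 higher and 5, 1 and 1 lower in the same contrasts. Over all genes tested, the shares higher in these contrasts were 8.39%, 0.398% and 5.76%, and the shares lower were 13.5%, 0.596% and 9.07%. Calls over all genes were thus also fewest at mid against early. The list summed to 5188 to 6089 CPM in late somatic cells, against 1637 to 2215 CPM in early ones, with Blimp-1 at 0 in all of these libraries. No test of a link between the list and the 76 genes was made, and Hr3 and Eip63E belong to both this list and the neighbours above.

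The 76 genes were set beside the genes with another symbol that pass the same thresholds. In whole ovaries at late against early, 171 of 255 of those that were tested were higher (67.1%) and 9 were lower (3.53%), with a median log2 fold change of 1.53, beside 60.5% and 6.58% and a median of 1.46 for the 76 genes. Other CG genes at 10 CPM or more in late somatic cells, which did not pass the fold threshold, had 130 higher (9.16%) and 131 lower (9.23%) of 1419 tested, with a median of 0.07. At late against mid the shares called higher were 52.6% of the 76, 61.6% of the genes with another symbol and 5.14% of the other CG genes. The shares of the 76 lay near those of the genes with another symbol, and the difference between the 2 sets was not tested.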

How the data were processed

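Poly(A) RNA of whole ovaries, sorted germ cells and sorted somatic cells was sequenced single-end in 27 libraries. The authors aligned reads with STAR 2.7.6a and counted them with RSEM 1.3.3 on the Release 6 genome (bcl2fastq 2.2 and DESeq2 1.26.0 are also in the submitters' notes), and deposited expected counts per gene, which are not normalized. These were rounded to whole numbers for testing. Each library was scaled to CPM on its own total (9680615 to 72875881). The choice of genes, the lists of marker and ecdysone genes and the tests were made with earlier results of these data known. Symbols came from the reference annotation for 16206 of 16257 genes and from the study's tables for 16, and 35 had none.

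Genes passing filterByExpr were tested with edgeR 4.0.16 (quasi-likelihood, robust, TMM) in R 4.3.3, with whole ovaries (9 libraries), germ cells (9) and both sorted cell types (18) fitted separately, Benjamini-Hochberg adjustment over all genes of a fit and a threshold of 0.01. An SE is the log2 fold change divided by the root of the F statistic. Alternatives were DESeq2 1.42.0, limma voom 3.58.1, other size factors, no low-count filter, a replicate block and each library left out. A level of 0 was set against 3 counts over its group, and intervals at 95% are exact and cover counting error only. The code was tested on simulated data. The genes named are the 10 highest, the 10 with the largest somatic ratio, the 5 with the smallest adjusted p in each direction of a comparison, those nearest the thresholds, those within 5 kb of another of the 76 and the 5 with the highest and lowest ratio of mid to late, with others where the text says so. No replicate pair had counts within sampling noise, the lowest chi-square per degree of freedom being 10.2. Python 3.11.15, numpy 2.4.6, pandas 2.3.3 and matplotlib 3.10.9 were used.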

Additional observations from a re-analysis of the deposited data

Results flagged for a closer look

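CG10814 moved in opposite directions in whole ovaries and germ cells. The ratio of the late to the early mean CPM was 0.064 in whole ovaries, where all late libraries were below all early ones, while all late germ cell libraries were above all early ones, of which 1 held a single count and the others none. The difference between the 2 tissues was not tested.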

How the results depend on the processing

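In whole ovaries at late against early, 46 genes rose under the chosen settings and 39 to 50 when each library was left out in turn, and the 5 that fell became 3 with the replicate block and 3 to 6 with a library left out. At mid against early, the 1 gene higher and 1 lower became 6 and 7 with DESeq2, 0 and 0 with the replicate block, and 0 to 4 each with a library left out. There the lower count was 2 with limma voom, with no low-count filter and with the symbols of the study's tables, and no gene was higher among the genes without exon overlap. At late against mid, 40 higher became 29 to 53 with a library left out, and 1 lower became 2 with DESeq2 and 0 to 1 with a library left out. In germ cells, 0 higher became 6 with DESeq2, 1 in the fit without the mid libraries and 0 to 1 with a library left out, the 1 without germ mid replicate 4. In germ against somatic cells at mid, 1 higher became 4 with DESeq2, 2 with limma voom, 0 in the fit of the 6 mid libraries alone and 1 to 3 with a library left out. The 5 lower became 3 with the replicate block, 0 in the fit of the 6 mid libraries, 2 without genes with exon overlap and 3 to 7 with a library left out. The 6-library fits have fewer libraries, and the cause of the other shifts was not tested.

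No result reversed. The 76 genes became 84 with the symbols of the study's tables, which keep 8 genes renamed since, 85 on TMM-scaled totals (75 shared) and 77 to 100 with an early or late somatic library left out. The fits without mid libraries, of the 6 mid libraries, without exon overlap and without each somatic mid library were chosen after seeing the data. Deviations of same-numbered libraries from their group means correlated weakly or not at all (r of -0.185 to 0.298 over 9 pairs in whole ovaries, -0.165 to 0.0311 over 6 in germ cells and -0.149 to 0.0788 over 36 in sorted cells). The main fits did not pair libraries by number. With so few libraries per group these values cannot show that same-numbered libraries had nothing in common. The median log2 fold change of all genes moved by 0.114 with DESeq2 at late against mid, and by -0.278 with limma voom and -0.229 with the replicate block in germ against somatic cells at mid. Depth limits genes at 0 to bounds set by 3 counts.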
